A study of Mus musculus with 10 samples.

Results

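The 43 genes described here encode the machinery of mitosis: the cyclins and kinases that start it, the kinetochore and checkpoint proteins that attach chromosomes to the spindle, spindle motors, cytokinesis proteins, condensin subunits and the proliferation antigen Ki-67. They were chosen by name, not by their values, from the 52096 genes of a table of FPKM, a measure of transcript abundance per kilobase and per library size. Each matched 1 gene identifier, and all 43 were among the 13041 genes tested, those that reached 1 FPKM in 5 or more of the 10 libraries.

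RNA came from bone marrow cells sorted as hematopoietic stem cells (HSCs: lineage-negative, Sca-1-positive, Kit-positive, CD150-positive and CD48-negative). The HET group holds 5 libraries labelled Nup214fl/+,Tie2-Cre, and the FL group holds 5 labelled Nup214fl/+. Both groups therefore carry 1 floxed allele of Nup214, which encodes a nucleoporin on the cytoplasmic side of the nuclear pore, and HET adds a Cre driven by the Tie2 promoter, which is active in endothelial and blood lineages. No group has Cre without the floxed allele, so deletion and Cre itself cannot be told apart. Age and sex of the mice, and whether each library is a separate mouse, are not given in the sources used here. The p-values set differences between groups against the spread between these libraries.

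Entry into mitosis is driven by CDK1 bound to cyclin A or B. The chromosomes are then condensed, captured by the spindle at their kinetochores and held under a checkpoint until all are attached, when the anaphase-promoting complex has securin and cyclin B destroyed. Genes of this machinery are transcribed late in the cell cycle. The DREAM complex represses many of them in resting cells, and B-MYB and FOXM1 activate them in G2, through a CHR element (TTTGAA or TTTAAA) near the transcription start that often lies beside CCAAT boxes bound by NF-Y. Most adult HSCs are quiescent, so in a stem cell population these transcripts are read as a trace of cells in cycle.

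These promoter letters were looked up in RefSeq windows of build GRCm38.p6, from 250 bases before to 50 bases after each start, and are shown because they are what most of the genes share beyond their function. Windows were matched for 36 members, 38 windows in all. Ccna2, Cdca2, Smc4, Cdc25c, Tpx2, Incenp and Aurkb had no entry. On either strand, TTTGAA was in 28 of 38 member windows (73.7%), against 17.9% of all 32851 windows. CCAAT was in 28 of 38 (73.7%), against 37.4%, and TTTAAA, which reads the same on both strands, in 10 of 38 (26.3%), against 13.2%. Both TTTGAA and CCAAT were in 24 of 38 member windows (63.2%) and in 6.95% of all windows. The 120 bases before the start follow for 4 abundant members with TTTGAA (Cdk1, Cdc20, Ube2c, Top2a), for Ccnb1, which has TTTAAA, for Ckap5, the member with the largest difference between groups, and for Pttg1, whose window holds none of the 3. Each is written 5′ to 3′ on the gene's strand, with complete matches on either strand in capitals (TTCAAA and ATTGG are the reverse complements of TTTGAA and CCAAT). They lie at chr10:69352913-69353032, minus strand; chr4:118437344-118437463, minus strand; chr2:164769809-164769928, plus strand; chr11:99024190-99024309, minus strand; chr13:100786487-100786606, minus strand; chr2:91526642-91526761, plus strand; and chr11:43425982-43426101, minus strand.
Cdk1: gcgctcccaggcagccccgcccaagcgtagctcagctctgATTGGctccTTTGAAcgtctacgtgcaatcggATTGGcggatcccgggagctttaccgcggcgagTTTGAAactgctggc
Cdc20: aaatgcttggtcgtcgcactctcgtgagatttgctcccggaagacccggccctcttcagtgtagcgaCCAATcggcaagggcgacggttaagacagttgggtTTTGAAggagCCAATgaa
Ube2c: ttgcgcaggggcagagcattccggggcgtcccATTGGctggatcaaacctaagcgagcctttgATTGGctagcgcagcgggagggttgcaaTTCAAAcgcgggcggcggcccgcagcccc
Top2a: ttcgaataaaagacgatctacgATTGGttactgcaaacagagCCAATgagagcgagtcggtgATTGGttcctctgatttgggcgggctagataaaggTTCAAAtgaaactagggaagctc
Ccnb1: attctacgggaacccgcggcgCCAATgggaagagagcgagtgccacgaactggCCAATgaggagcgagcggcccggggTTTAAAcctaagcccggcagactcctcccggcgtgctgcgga
Ckap5: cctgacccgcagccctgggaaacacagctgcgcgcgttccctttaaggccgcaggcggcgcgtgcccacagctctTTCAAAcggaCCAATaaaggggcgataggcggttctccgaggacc
Pttg1: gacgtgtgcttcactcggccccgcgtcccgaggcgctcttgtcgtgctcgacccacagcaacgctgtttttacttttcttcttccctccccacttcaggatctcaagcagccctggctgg
A match is a description of the letters and not a measured binding site. The starts are those of RefSeq and differ for some members from those of the GENCODE annotation. The Pttg1 window lay wholly inside the GENCODE gene (chr11:43420250-43426251, minus strand). Its lack of matches therefore does not describe the bases before the GENCODE start of Pttg1. The median difference between HET and FL was -0.165 on the log2 scale for the 26 members with TTTGAA in a window and -0.174 for the 10 without. Those without TTTGAA include Birc5, Ccnb1 and Cenpe, which have TTTAAA. The median was -0.219 for the 10 members with TTTAAA and -0.138 for the 26 without. For CCAAT it was -0.193 for the 26 with and -0.14 for the 10 without. It was -0.045 for the 5 members with none of the 3. These splits were not tested.

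Nup214 itself had 31.2, 9.74, 17.4, 16.3 and 9.13 FPKM in HET libraries 1 to 5, against 65.8, 55.3, 52.2, 43.9 and 30 FPKM in FL libraries 1 to 5 (exact two-sided permutation p = 0.0159). In limma its difference was -1.59 (SE 0.31, adjusted p = 0.472) with all libraries. It was -1.76 without FL 5 (adjusted p = 0.0183), -1.84 without HET 1 (0.0616), -2.0 without both (0.000157) and -1.96 with array quality weights (0.000376). Its HET value was highest in HET 1 and its FL value lowest in FL 5, and these 2 crossed. Setting them aside, or giving them less weight, therefore widens the separation by construction. The smaller adjusted p-values in those settings are no independent check of the labels. The same 2 libraries stood apart over all genes: HET 1 lay with FL 1 to 4, and FL 5 with HET 2 to 5, on the first principal component, which held 42.6% of the variance. Whether their labels were exchanged cannot be settled from the deposited values. The labels were kept, and every difference between HET and FL given here holds for the libraries as labelled. Calls without these libraries are given after the gene groups. Of the gate's own genes, Slamf1 (CD150) averaged 3.97 FPKM in HET and 3.81 in FL and Kit 153.9 FPKM in HET and 144.9 in FL. Ly6a (Sca-1) averaged 95.8 FPKM in HET, where HET 5 reached 179 FPKM, and 56.5 FPKM in FL. The Ly6a difference was 0.58 (SE 0.34, limma adjusted p = 0.494). Cd48 averaged 84.7 FPKM in HET and 85.1 in FL, and Mpo, a gene of granulocyte precursors, 9573 FPKM in HET and 8250 in FL. The transcripts of a population negative for CD48 protein thus included Cd48, and their source was not tested. Which cells the members' transcripts came from was not tested either, so their levels need not be those of HSCs alone. In bulk samples, fewer cells of a type and less RNA per cell cannot be told apart.

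Most mitosis transcripts were more abundant than the median tested gene over the 10 libraries. The median member averaged 35.8 FPKM over the 10 libraries, against 10.4 FPKM for the median tested gene, and the members' means ran from 6.29 FPKM for Cenpe to 217 FPKM for Ube2c. The median member sat at percentile 79.2 of tested genes, and 10 members averaged at least 100 FPKM. Cenpe (percentile 37.7), Anln (48.8) and Cdc25c (48.8) lay below the median gene. The lowest single value was 5.02 FPKM, for Cenpe in HET 5. Read depth is unknown, but genes of 900 to 1200 exon bases had low non-zero values (percentile 5, FPKM times kilobases) of only 0.0359 to 0.101 in HET libraries and 0.0358 to 0.0659 in FL libraries. Within groups the members varied little: their median coefficient of variation was 13.5%, against 20.8% for the 7639 tested genes in the same range of levels, and it ran from 5.95% for Ckap2 to 27.4% for Pttg1.

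**Figure D1:**
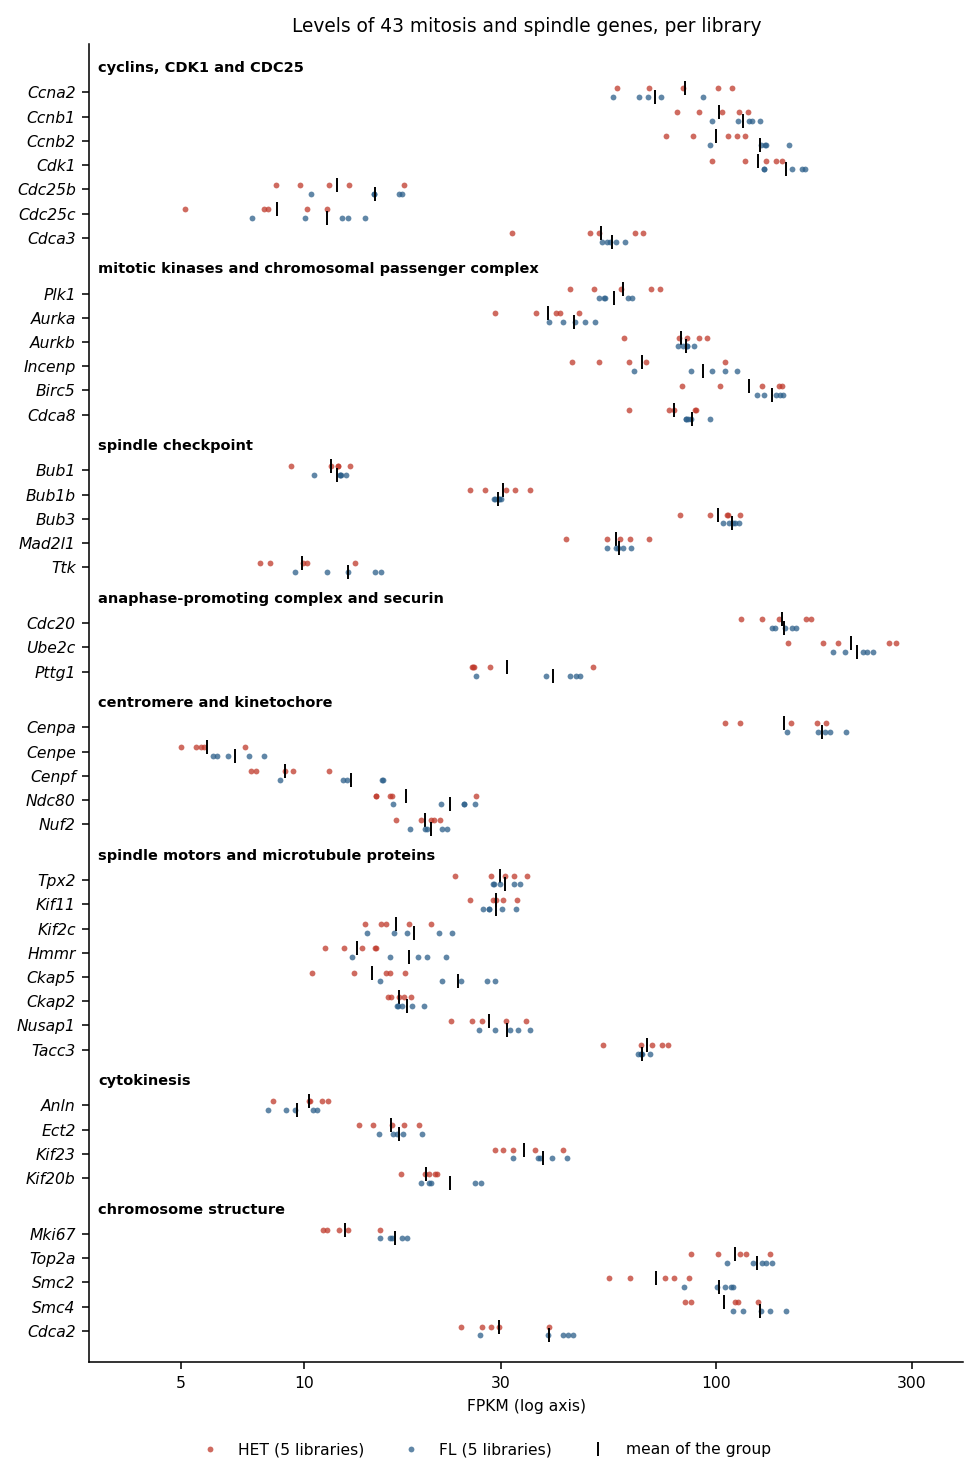
Level of each of the 43 members in every library (FPKM, log axis), grouped by role, with HET libraries as red points in the upper row and FL libraries as blue points in the lower row of each gene and black bars at group means. The red and blue points overlap for every member, and the levels run from 5.02 FPKM for Cenpe to 274 FPKM for Ube2c.

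No member differed between HET and FL past the threshold. In limma on log2(FPKM + 1), fitted on all 13041 genes with Benjamini-Hochberg adjustment at 0.05, 0 of 43 members were called lower (background 0%) and 0 higher (background 0%), and the smallest adjusted p of a member was 0.472. Mean log2 values were lower in HET for 38 members and higher for 5, where 77.3% of all tested genes were lower. The median difference over members was -0.172, against -0.166 over all tested genes, and 22 members lay below and 21 above that median of all genes (50% of all genes lie below it). At an unadjusted p under 0.05 there were 9 members, all lower (background 8.95% lower and 1.44% higher): Ccnb2, Incenp, Cenpf, Hmmr, Ckap5, Mki67, Smc2, Smc4 and Cdca2. The groups did not overlap for 0 members (background 0.284% lower and 0.222% higher). In 11 of 43 members all 5 HET libraries were below the FL median (background 13.2% of tested genes). Once the columns were scaled by median ratios, which left the median of all genes at 0.005, 20 members were lower and 23 higher with a median of 0.02.

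**Figure D2:**
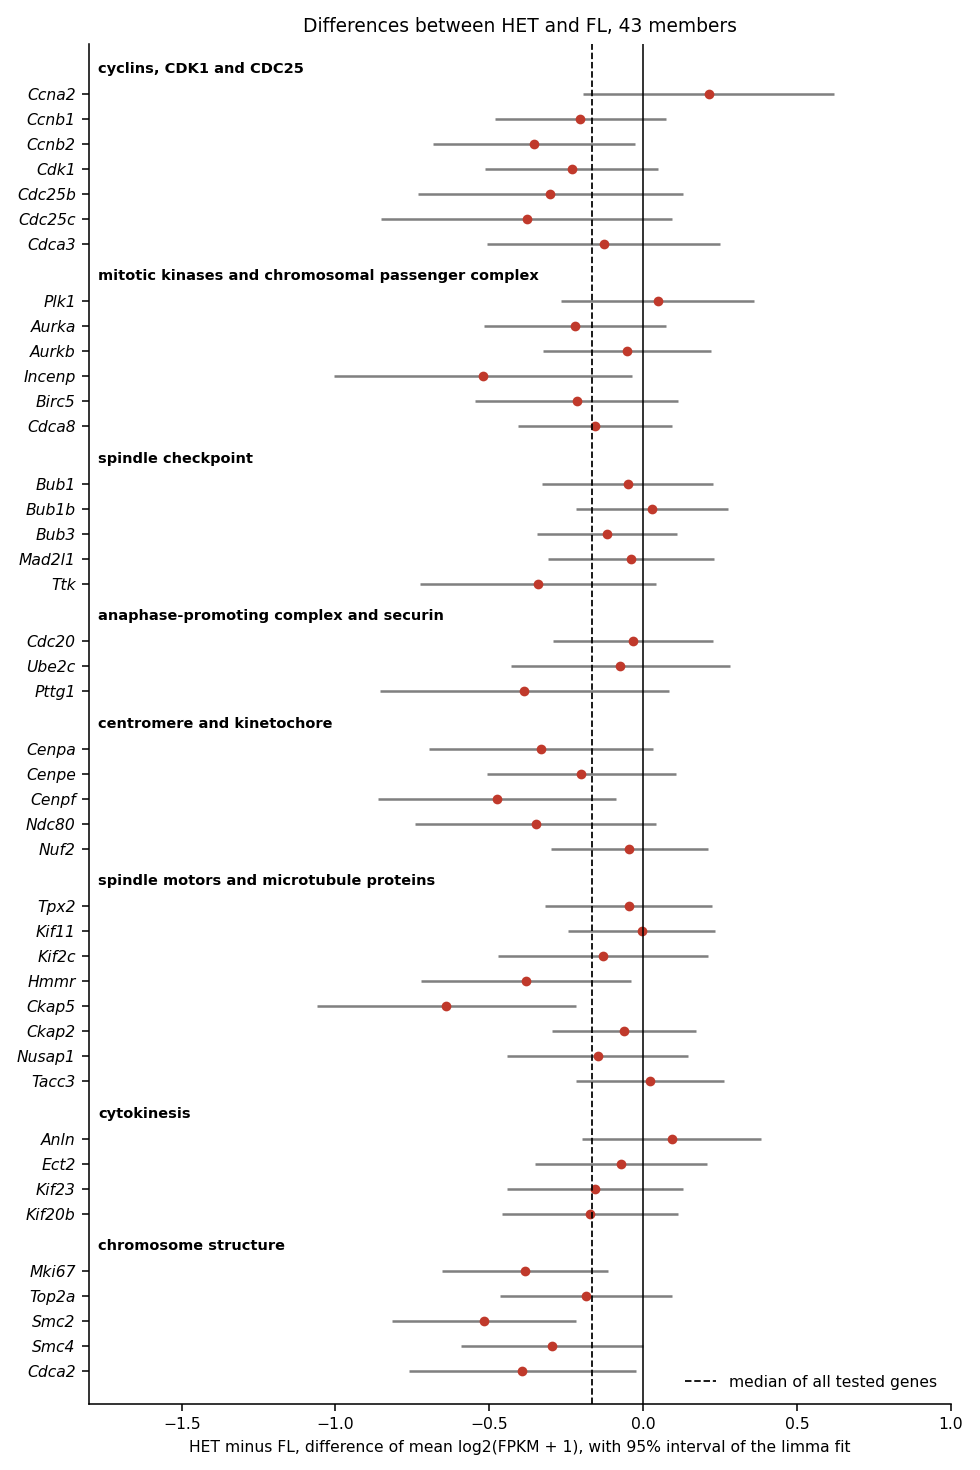
Difference of each member between HET and FL on the log2(FPKM + 1) scale (points) with its 95% interval from the limma fit (bars). The dashed line is the median of all tested genes, -0.166, which lies inside the intervals of all members other than Ckap5 and Smc2, with Ckap5 farthest to the left at -0.64 and Ccna2 farthest to the right at 0.21.

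Among the regulators of mitotic entry, cyclin B transcripts had lower means in HET while cyclin A2 had a higher one, and none of the 7 passed. Ccnb2, one of the B-type cyclins that activate CDK1, had 113, 118, 88.0, 107 and 75.9 FPKM in HET libraries 1 to 5, against 151, 129, 132, 132 and 96.9 FPKM in FL libraries 1 to 5. HET 5 and HET 3 were lowest and FL 1 highest, and FL 5 lay among the HET values. The difference was -0.36 (SE 0.15, limma adjusted p = 0.472). Cdk1, the kinase that triggers mitosis, had 133, 141, 118, 145 and 97.8 FPKM in HET libraries 1 to 5, against 163, 131, 153, 165 and 131 FPKM in FL libraries 1 to 5. HET 1, HET 2 and HET 4 lay inside the FL range and HET 3 and HET 5 below it, and the difference was -0.23 (SE 0.13, limma adjusted p = 0.477). Ccnb1, the other B-type cyclin, averaged 102 ± 16.1 FPKM in HET and 117 ± 11.9 FPKM in FL (SD, n = 5 each), and its ratio to Cdk1 was 0.803 ± 0.0331 in HET and 0.790 ± 0.0848 in FL.

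Ccna2, cyclin A2, which acts in S phase and at mitotic entry, was the member with the highest difference. It had 57.6, 109, 83.1, 101 and 69.0 FPKM in HET libraries 1 to 5, against 65.0, 56.4, 68.5, 73.8 and 93.3 FPKM in FL libraries 1 to 5. HET 2, HET 4 and FL 5 were the 3 highest and FL 2 and HET 1 the 2 lowest, so the groups overlapped widely. The difference was 0.21 (SE 0.19, limma adjusted p = 0.584). The ratio of Ccna2 to Ccnb2, which no scaling of a library can change, was 0.511 in HET 1 and 0.909 to 0.946 in HET 2 to 5, against 0.431 to 0.558 in FL 1 to 4 and 0.963 in FL 5. Libraries thus fell into 2 ranges by this ratio, with HET 1 among the FL values and FL 5 above every HET value. This ratio was picked after its values were seen and was not tested. Exons of Exosc9 on the opposite strand cover 12.5% of Ccna2's exon bases, and Exosc9 averaged 33.1 ± 6.87 FPKM in HET and 35.5 ± 4.0 FPKM in FL (SD, n = 5 each). The phosphatase genes Cdc25b and Cdc25c, which activate CDK1, averaged 12.02 ± 3.45 FPKM in HET and 14.8 ± 2.76 FPKM in FL and 8.55 ± 2.39 FPKM in HET and 11.3 ± 2.61 FPKM in FL (SD, n = 5 each). Cdca3, which promotes mitotic entry, averaged 52.7 FPKM in HET and 56.0 FPKM in FL.

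The chromosomal passenger complex corrects faulty attachments at centromeres and consists of the kinase Aurora B (Aurkb), the scaffold Incenp, survivin (Birc5) and borealin (Cdca8). Of its 4 transcripts, that of the scaffold had the largest difference. Incenp had 106, 67.8, 61.6, 52.0 and 44.7 FPKM in HET libraries 1 to 5, against 113, 105, 97.8, 87.1 and 63.2 FPKM in FL libraries 1 to 5. HET 1 lay among FL 1 to 3 and FL 5 among the other HET libraries. The difference was -0.52 (SE 0.22, limma adjusted p = 0.472). Birc5 had 129.8, 145, 103, 143 and 82.8 FPKM in HET libraries 1 to 5, against 144, 131, 141, 146 and 126 FPKM in FL libraries 1 to 5. HET 1, HET 2 and HET 4 were inside the FL range and HET 5 and HET 3 below it, with a difference of -0.22 (SE 0.15, limma adjusted p = 0.528). Aurkb averaged 82.6 ± 13.7 FPKM in HET and 84.7 ± 2.93 FPKM in FL and Cdca8 79.2 ± 11.4 FPKM in HET and 87.8 ± 5.13 FPKM in FL (SD, n = 5 each), and their differences were -0.05 and -0.16. The ratio of Incenp to Aurkb was 1.29 in HET 1 and 0.571 to 0.747 in HET 2 to 5, against 1.02 to 1.35 in FL 1 to 4 and 0.743 in FL 5, the same split of libraries as for Ccna2 over Ccnb2. This ratio too was chosen with earlier results of these data known and was not tested. The spindle kinase gene Aurka had 41.9, 46.5, 36.6, 40.9 and 29.1 FPKM in HET libraries 1 to 5, against 50.9, 45.6, 48.2, 42.5 and 39.3 FPKM in FL libraries 1 to 5. Only HET 5 and HET 3 were below all FL values, and the difference was -0.22 (SE 0.14, limma adjusted p = 0.498). Plk1, a kinase of centrosome maturation and cytokinesis, averaged 59.4 ± 12.3 FPKM in HET and 56.6 ± 4.86 FPKM in FL, with an interval of -0.27 to 0.36 for its difference.

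Genes of the spindle checkpoint, which delays anaphase until all kinetochores are attached, had differences near 0, apart from Ttk. Bub3, a subunit of the checkpoint complex, had 107, 115, 97.0, 107 and 82.1 FPKM in HET libraries 1 to 5, against 114, 112, 108, 110.0 and 104 FPKM in FL libraries 1 to 5. HET 5 was the lowest and HET 2 the highest of all 10 libraries. The difference was -0.12 (SE 0.10, limma adjusted p = 0.591), with an interval of -0.34 to 0.11. Bub1b, which encodes BubR1, averaged 30.3 ± 3.98 FPKM in HET and 29.5 ± 0.512 FPKM in FL and Mad2l1 57.3 ± 9.48 FPKM in HET and 58.3 ± 2.91 FPKM in FL (SD, n = 5 each), and the intervals of their differences were -0.22 to 0.28 and -0.31 to 0.23. The checkpoint kinase gene Bub1 averaged 11.6 ± 1.37 FPKM in HET and 11.98 ± 0.82 FPKM in FL. Ttk, the kinase MPS1 that starts checkpoint signalling, had 13.3, 10.1, 9.93, 8.26 and 7.81 FPKM in HET libraries 1 to 5, against 15.3, 12.8, 14.9, 11.4 and 9.51 FPKM in FL libraries 1 to 5. HET 2 to 5 were below FL 1 to 4, HET 1 was among the FL values, and FL 5 was inside the HET range. The difference was -0.34 (SE 0.18, limma adjusted p = 0.472).

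The 3 genes of the exit step differed in how evenly they were expressed. Ube2c, the ubiquitin-conjugating enzyme of the anaphase-promoting complex, was the most abundant member and had 182, 274, 199, 264 and 150.2 FPKM in HET libraries 1 to 5, against 206, 193, 228, 241 and 233 FPKM in FL libraries 1 to 5. HET 2 and HET 4 were the highest and HET 5 and HET 1 the lowest of all 10 libraries. The difference was -0.07 (SE 0.16, limma adjusted p = 0.822), and Tnnc2 exons on the opposite strand cover 22.8% of its exon bases. Cdc20, which activates the complex once the checkpoint is satisfied, averaged 145 ± 23.3 FPKM in HET and 147 ± 8.60 FPKM in FL (SD, n = 5 each), with an interval of -0.29 to 0.23. Pttg1, securin, the inhibitor of separase, had 50.5, 25.7, 28.2, 25.6 and 25.8 FPKM in HET libraries 1 to 5, against 46.9, 44.4, 45.8, 38.6 and 26.1 FPKM in FL libraries 1 to 5. HET 1 was the highest of all 10, and FL 5 lay with HET 2 to 5 in a range of 25.6 to 28.2 FPKM, below the 38.6 FPKM of FL 4. The difference was -0.39 (SE 0.22, limma adjusted p = 0.479).

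Kinetochore and centromere genes all had lower means in HET, as did 77.3% of all tested genes, with a median difference of -0.33 over 5 genes. Cenpf, a large kinetochore-associated protein of G2 and mitosis, had 11.4, 7.63, 7.42, 9.37 and 8.96 FPKM in HET libraries 1 to 5, against 15.5, 12.7, 15.5, 12.4 and 8.74 FPKM in FL libraries 1 to 5. All 5 HET values were below the FL median, and FL 5 lay inside the HET range. The difference was -0.48 (SE 0.18, limma adjusted p = 0.472). Cenpa, the histone H3 variant that marks centromeres, had 153, 176, 115, 185 and 105 FPKM in HET libraries 1 to 5, against 190.2, 177, 207, 184 and 149 FPKM in FL libraries 1 to 5. HET 5 and HET 3 were below all FL values and the other HET libraries inside the FL range, with a difference of -0.33 (SE 0.17, limma adjusted p = 0.472). Ndc80 and Nuf2 encode partners in the complex that grips microtubules, and their differences were -0.35 and -0.04. Ndc80 averaged 17.7 ± 4.74 FPKM in HET and 22.6 ± 3.83 FPKM in FL and Nuf2 19.7 ± 1.85 FPKM in HET and 20.3 ± 1.70 FPKM in FL (SD, n = 5 each). The ratio of Ndc80 to Nuf2 was 1.22 in HET 1 and 0.776 to 0.897 in HET 2 to 5, against 1.08 to 1.24 in FL 1 to 4 and 0.909 in FL 5. HET 1 again lay among the FL values and FL 5 just above the other HET values. This ratio was likewise chosen with earlier results known and was not tested. Pttg1 over Cdc20 split the libraries in this way as well. Ccnb1 over Cdk1, Smc2 over Smc4 and Bub1b over Mad2l1 did not. Bub1b over Mad2l1 was 0.471 in HET 1 and 0.515 to 0.587 in HET 2 to 5. It was 0.477 to 0.530 in FL 1 to 4 and 0.508 in FL 5. Cenpe, a kinesin that moves chromosomes to the spindle equator, averaged 5.79 ± 0.815 FPKM in HET and 6.80 ± 0.841 FPKM in FL.

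Spindle genes held both the largest and some of the smallest differences. Ckap5, the microtubule polymerase chTOG, had 17.6, 10.4, 16.1, 15.8 and 13.2 FPKM in HET libraries 1 to 5, against 27.8, 21.6, 29.1, 24.1 and 15.3 FPKM in FL libraries 1 to 5. All 5 HET values were below the FL median, HET 2 was the lowest of all 10 and FL 5 lay inside the HET range. The difference was -0.64 (SE 0.19, limma adjusted p = 0.472). Hmmr, the hyaluronan-mediated motility receptor that also acts in spindle assembly, had 14.9, 13.8, 12.4, 14.9 and 11.2 FPKM in HET libraries 1 to 5, against 22.1, 18.9, 19.9, 16.1 and 13.0 FPKM in FL libraries 1 to 5. HET 5 was the lowest of all and FL 5 lay inside the HET range, with a difference of -0.38 (SE 0.16, limma adjusted p = 0.472). Tacc3, which binds chTOG and clathrin on spindle fibres, had 69.9, 76.6, 65.8, 74.1 and 53.2 FPKM in HET libraries 1 to 5, against 69.4, 65.9, 64.7, 65.9 and 66.0 FPKM in FL libraries 1 to 5. The FL values spanned 64.7 to 69.4 FPKM, with HET 1, HET 2 and HET 4 above and HET 5 below, and the difference was 0.02 (SE 0.11, limma adjusted p = 0.928). Kif11, the motor Eg5 that pushes spindle poles apart, averaged 29.3 ± 2.78 FPKM in HET and 29.3 ± 2.25 FPKM in FL (SD, n = 5 each), with an interval of -0.24 to 0.24. Tpx2, the activator of Aurora A, and Ckap2 had intervals of -0.32 to 0.22 and -0.30 to 0.17. Nusap1, which bundles spindle microtubules, and Kif2c, the microtubule-depolymerizing kinesin MCAK, had differences of -0.15 and -0.13.

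Cytokinesis genes had differences from -0.17 to 0.09, and the groups overlapped for each of the 4. Kif20b, a mitotic kinesin, had 20.8, 20.1, 20.96, 19.6 and 17.2 FPKM in HET libraries 1 to 5, against 26.9, 20.1, 26.0, 20.4 and 19.3 FPKM in FL libraries 1 to 5. FL 1 and FL 3 were above all other libraries, whose values overlapped, and the difference was -0.17 (SE 0.13, limma adjusted p = 0.546). Kif23, a kinesin of the central spindle, had 42.6, 36.3, 32.2, 29.1 and 30.5 FPKM in HET libraries 1 to 5, against 40.0, 37.0, 43.5, 37.4 and 32.1 FPKM in FL libraries 1 to 5. HET 1 was second highest after FL 3, and HET 4 and HET 5 were lowest. The difference was -0.16 (SE 0.13, limma adjusted p = 0.571). Ect2, the exchange factor that activates RhoA at the division plane, averaged 16.2 ± 2.16 FPKM in HET and 17.0 ± 1.53 FPKM in FL. Anln, anillin, which scaffolds the contractile ring, averaged 10.3 ± 1.17 FPKM in HET and 9.57 ± 1.05 FPKM in FL (SD, n = 5 each), one of the 5 members with a higher mean in HET, and the interval of its difference was -0.20 to 0.38.

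Genes of chromosome structure had the lowest median, -0.38 over 5 genes, and 4 of them were lower with an unadjusted p under 0.05, as were 8.95% of all tested genes. Smc2, the condensin ATPase subunit shared by both condensin complexes, had 86.0, 79.1, 55.1, 75.1 and 62.1 FPKM in HET libraries 1 to 5, against 109, 101, 106, 110.5 and 83.7 FPKM in FL libraries 1 to 5. All HET values but HET 1 were below every FL value, and HET 1 was above FL 5 alone. The difference was -0.52 (SE 0.14, limma adjusted p = 0.472). Its partner Smc4 averaged 105 ± 18.2 FPKM in HET and 128 ± 15.0 FPKM in FL (SD, n = 5 each), and the ratio of Smc2 to Smc4 was 0.678, 0.710, 0.631, 0.662 and 0.736 in HET libraries 1 to 5, against 0.737, 0.781, 0.780, 0.948 and 0.759 in FL libraries 1 to 5. By this ratio the groups did not overlap, although HET 5 and FL 1 differed only in the third decimal place; it was picked after its values were seen and was not tested. Mki67, which encodes Ki-67, the coat protein of mitotic chromosomes used to mark cycling cells, had 15.3, 11.4, 12.1, 12.8 and 11.1 FPKM in HET libraries 1 to 5, against 17.3, 16.3, 17.8, 16.1 and 15.3 FPKM in FL libraries 1 to 5. HET 1 was level with FL 5 and the other HET values were below all FL values. The difference was -0.38 (SE 0.12, limma adjusted p = 0.472). Top2a, topoisomerase II alpha, which untangles sister DNA, had 136, 119, 101, 114 and 86.9 FPKM in HET libraries 1 to 5, against 133, 123, 137, 130.0 and 107 FPKM in FL libraries 1 to 5. HET 1 was the second highest of all libraries after FL 3, and the difference was -0.19 (SE 0.13, limma adjusted p = 0.522). Cdca2, a targeting subunit of protein phosphatase 1 on chromatin, averaged 29.7 ± 5.74 FPKM in HET and 39.5 ± 7.43 FPKM in FL.

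**Figure D3:**
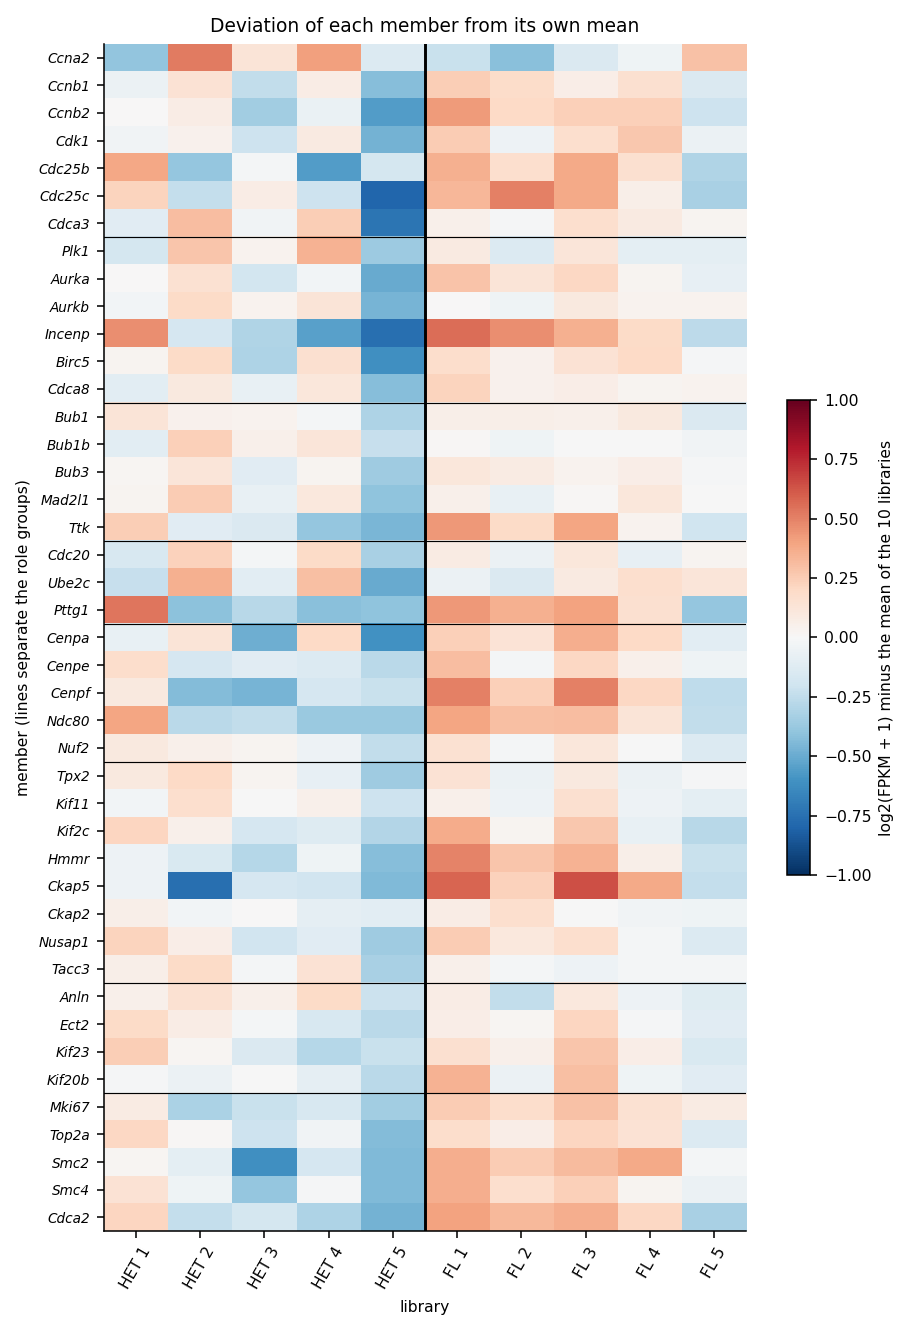
Deviation of each member from its own mean over the 10 libraries on the log2(FPKM + 1) scale, with HET libraries left of the black line and FL libraries right of it. HET 5 is below the mean in every row, and HET 1 and FL 5 go against their groups in rows such as Pttg1, Ndc80 and Incenp.

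One library weighed on most of these means. HET 5 held the lowest value of 34 of the 43 members, and its median deviation from the members' means was -0.373 on the log2 scale, against -0.196 over all tested genes in that library. Without HET 5, 29 members were lower and 14 higher, and the members' median difference was -0.101, against -0.137 over all genes. Relative to all genes, members stood highest in HET 2 and HET 4 (0.267 and 0.200 above the median gene of the library) and lowest in HET 1 (-0.249). Immunoglobulin transcripts were also highest in HET 5: the 8 B and plasma cell markers summed to 101900 FPKM there, against 8062 to 47780 FPKM in the other HET libraries and 2618 to 10900 FPKM in FL libraries. Of that list, the B cell gene Pax5 was at no more than 0.22 FPKM in HET and 0.55 FPKM in FL. Cd79b, also in that list, had 22.3 to 51.9 FPKM in HET and 24.9 to 43.7 FPKM in FL. The part of these transcripts in the members' values was not tested.

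Set against S phase transcripts, the sum of mitosis transcripts had a lower mean ratio in HET, 1.05 ± 0.0898, than in FL, 1.24 ± 0.152 (SD, n = 5 each, not tested). The 43 members summed to 2504, 2691, 2196, 2589 and 1821 FPKM in HET libraries 1 to 5, against 2846, 2585, 2801, 2682 and 2387 FPKM in FL libraries 1 to 5. The 22 S phase genes summed to 2252 ± 317 FPKM in HET and 2155 ± 132 FPKM in FL (SD, n = 5 each). The ratio of the sums, which does not depend on the scaling of a library, was 1.2, 1.01, 0.974, 1.07 and 0.995 in HET libraries 1 to 5, against 1.35, 1.21, 1.42, 1.2 and 1.03 in FL libraries 1 to 5. HET 1 was level with FL 4, and FL 5 lay inside the HET range, so the groups overlapped. The S phase list itself had a median difference of -0.02, with 15 of 22 genes lower (77.3% of all tested genes) and 0 called.

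**Figure D4:**
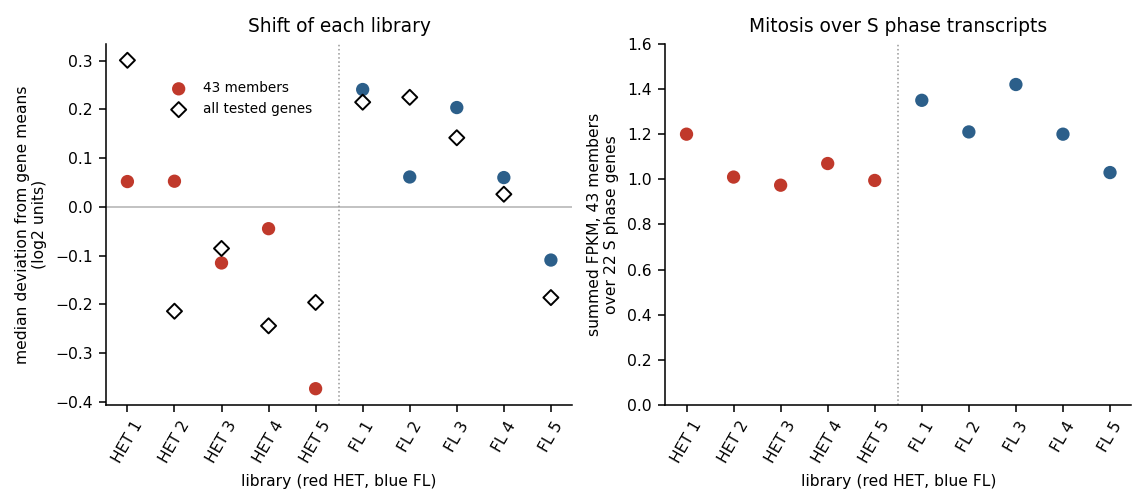
Left, the median deviation of the 43 members (filled) and of all tested genes (open diamonds) from gene means in each library, in log2 units, with HET in red and FL in blue. Right, the summed FPKM of the 43 members over that of the 22 S phase genes, between 0.974 and 1.2 in HET libraries and between 1.03 and 1.42 in FL libraries.

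Mitosis genes outside the 43, taken from 4 lists, had a median difference close to that of the members and of all genes. Of 107 genes, all tested, 88 had lower and 19 higher means in HET (77.3% of all tested genes were lower), and 0 were called in either direction (background 0%). At an unadjusted p under 0.05, 18 were lower and 0 higher (background 8.95% lower and 1.44% higher). Their median difference was -0.196. In the list of the anaphase-promoting complex (18 genes, 14 lower, median -0.24), Ube2s, which extends ubiquitin chains on its substrates, had 24.6, 7.76, 8.58, 7.18 and 7.47 FPKM in HET libraries 1 to 5, against 38.5, 39.6, 28.6, 27.8 and 9.35 FPKM in FL libraries 1 to 5. HET 1 stood far above the other HET libraries and FL 5 far below the other FL libraries, and the difference was -1.31 (SE 0.41, limma adjusted p = 0.472). The core subunit gene Anapc10 averaged 4.39 ± 1.63 FPKM in HET and 8.55 ± 1.99 FPKM in FL (SD, n = 5 each). In the list of condensin and cohesin (19 genes, 17 lower, median -0.22), the cohesin subunit gene Rad21 had 27.3, 7.31, 8.02, 6.85 and 8.11 FPKM in HET libraries 1 to 5, against 31.7, 33.0, 25.9, 23.4 and 10.02 FPKM in FL libraries 1 to 5. The same 2 libraries crossed, and the difference was -1.15 (SE 0.40, limma adjusted p = 0.472). Kinetochore genes (37, of which 31 lower, median -0.20) included Cenph at 18.9 ± 3.33 FPKM in HET and 28.0 ± 5.68 FPKM in FL, and spindle and cytokinesis genes (33, of which 26 lower, median -0.18) included the kinesin gene Kif15 at 24.6 ± 5.31 FPKM in HET and 33.4 ± 0.932 FPKM in FL. Each of the genes named here had limma adjusted p = 0.472.

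Regulators of mitotic entry and of late cell cycle transcription (33 genes, 27 lower, 6 higher, median -0.23) had 0 calls in limma and 6 genes with an unadjusted p under 0.05, all lower (background 8.95%). Of all tested genes, 77.3% had lower means in HET. Mybl2, which encodes B-MYB, had 8.51, 6.69, 8.75, 7.22 and 4.03 FPKM in HET libraries 1 to 5, against 26.4, 23.7, 17.1, 17.4 and 6.28 FPKM in FL libraries 1 to 5. All 5 HET values, HET 1 included, were below FL 1 to 4, and FL 5 lay inside the HET range. The difference was -1.16 (SE 0.33, limma adjusted p = 0.472). Wee1, the kinase that holds CDK1 inactive, had 17.3, 8.71, 10.2, 7.70 and 8.44 FPKM in HET libraries 1 to 5, against 31.2, 27.0, 24.3, 23.6 and 7.31 FPKM in FL libraries 1 to 5. FL 5 was the lowest library of all and HET 1 the highest of its group, with a difference of -0.96 (SE 0.35, limma adjusted p = 0.472). Nfya, a subunit of the CCAAT-binding factor NF-Y, averaged 6.68 ± 5.17 FPKM in HET and 12.8 ± 4.07 FPKM in FL (SD, n = 5 each, limma adjusted p = 0.472).

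**Figure D5:**
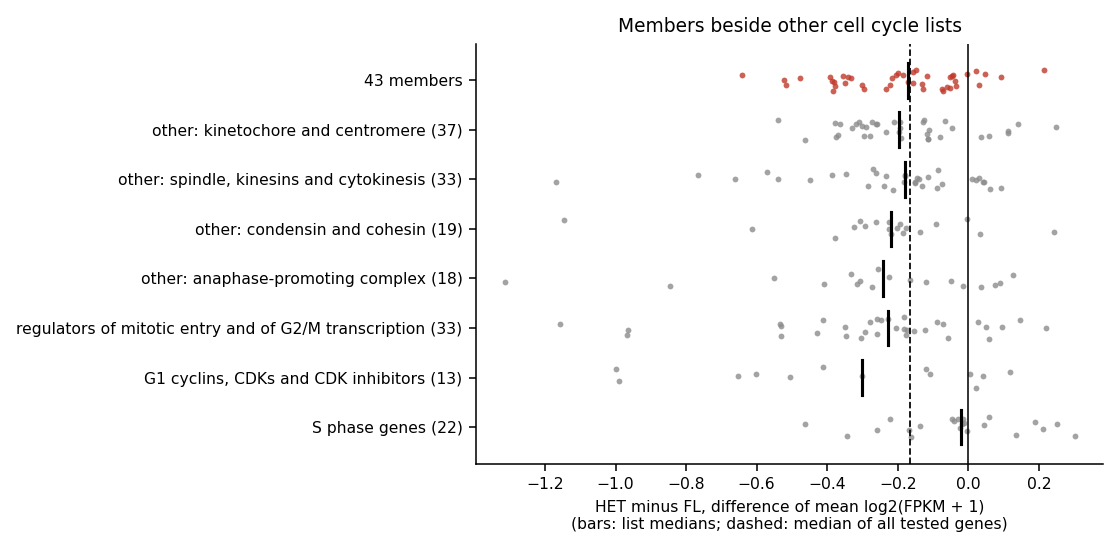
Difference between HET and FL on the log2(FPKM + 1) scale for each gene (points) of the 43 members and of 7 other cell cycle lists, with list medians as black bars and the median of all tested genes dashed. The members' median, -0.172, lies next to that of all genes, -0.166, and the S phase list is the one nearest to 0, at -0.02.

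Setting libraries aside brought calls, in members and in other genes alike. Without FL 5, Ckap5 and Smc2 were called lower, 2 of 43 or 4.65% (background 2.91% lower and 0.23% higher). Without both FL 5 and HET 1, 17 of 43 members were called lower, which is 39.5% (background 42.2%), and Ccna2 was called higher (background 3.44%). The members' median difference was then -0.28, against -0.325 over all genes. Pttg1 had the smallest adjusted p among members there, 0.000222 with a difference of -0.71, against -0.39 with all libraries. Other called members moved by over 1.5 times as well: the difference was -0.83 for Incenp (-0.52 with all libraries), -0.63 for Cdca2 (-0.39), -0.61 for Cdc25c (-0.38), -0.60 for Ndc80 (-0.35), -0.55 for Cdc25b (-0.30) and -0.54 for Ttk (-0.34). It was -0.32 for Top2a (-0.19), -0.31 for Cenpe (-0.20), -0.30 for Kif23 (-0.16) and 0.44 for Ccna2 (0.21). The 17 lower ones were Pttg1, Cdca2, Ndc80, Incenp, Ckap5, Cenpf, Smc2, Mki67, Hmmr, Cdc25b, Ttk, Ccnb2, Cdc25c, Smc4, Kif23, Top2a and Cenpe. With array quality weights, which gave FL 5 a weight of 0.236 and HET 1 one of 0.149, the same 17 were called lower, 39.5% (background 47.8%) and Ccna2 higher (background 4.87%). The members' share of lower calls was above that of all tested genes without FL 5 (4.65% against 2.91%) and below it in the other settings (39.5% against 42.2% and 47.8%). These libraries were set aside because of how they stood on the same data. The weights were fitted with genotype in the model, so they too rest on how each library matched its label.

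Markers of other cell types had unequal levels in the groups beside these values, and their part in the members' values was not tested. The mean log2 values of all 7 late neutrophil markers were higher in HET, and they summed to 195 to 738 FPKM in HET libraries and 95.2 to 289.9 FPKM in FL libraries. Those of all 6 macrophage markers were lower in HET, with sums of 70.3 to 330 FPKM in HET and 175 to 317 FPKM in FL. The 5 markers of progenitors and early granulocytes, 4 of them higher in HET, summed to 12800 to 22400 FPKM in HET and 12190 to 17860 FPKM in FL. The 7 erythroid markers, all with lower mean log2 values, summed to 1483 to 4291 FPKM in HET and 2327 to 3246 FPKM in FL. Among them, Car2 (1334 FPKM in HET, 1244 in FL) and Hbb-bs (30.9 in HET, 28.8 in FL) had higher mean FPKM in HET. The 5 megakaryocyte markers, all lower, summed to 983 to 1792 FPKM in HET and 1817 to 2408 FPKM in FL. The 6 HSC markers, 4 of them higher in HET, summed to 189 to 371 FPKM in HET and 167 to 270 FPKM in FL. No marker was at 0 in all libraries, and in limma 0 markers were called in either direction. At an unadjusted p under 0.05, 5 of 7 late neutrophil and 2 of 5 tested B and plasma cell markers were higher (background 1.44%). Mmp9, counted among these late neutrophil markers, had 1.07 to 2.32 FPKM in HET and 0.32 to 0.84 FPKM in FL. It met the filter of 1 FPKM in 5 libraries only through HET. Its direction was thus fixed by the filter, and it adds nothing to either count of late neutrophil markers. At that level 5 of 6 macrophage markers and 1 of 5 megakaryocyte markers were lower (background 8.95%). No HSC, progenitor or erythroid marker reached it.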

How the data were processed

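The deposited table, made by the authors, holds FPKM for each Ensembl gene in each library. The submitters' processing notes name build mm10. They list Bowtie (version 0.12.9), HTSeq, DESeq2 and Cufflinks (version 2.1.1) without saying what each did. Per the labels' protocols, RNA was amplified by Geo-seq, a method for small samples, and libraries were made with a transposase kit. No molecular identifiers or strand marking are named, so duplicates and antisense reads cannot be separated. FPKM sums ran from 896054 to 1066190 per library, and read depth is unknown.

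All 52096 identifiers matched GENCODE M21 (GRCm38). The 13041 genes that reached 1 FPKM in 5 or more of the 10 libraries were tested as log2(FPKM + 1), a scale that understates changes of low genes, with limma 3.58.1 in R 4.3.3 (trend and robust empirical Bayes, genotype alone, Benjamini-Hochberg adjustment over all tested genes at 0.05). Intervals are 95% limma intervals for the difference of group means, and their width rests on the spread between libraries. Exons of 11 members overlap those of another gene, and Ccnb1 and Ccnb2 each have 1 named pseudogene, so their values are uncertain. For Nup214, the exact two-sided permutation test ran over 252 assignments. Any pair of libraries shared at most 0.767% of tested values, so none was counted as a duplicate. Python 3.11.15 and matplotlib 3.10.9 drew the figures.

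The members, lists and alternatives were chosen with earlier results of these data known. Members with values in every library are, in each role group, those with the smallest p and the highest mean, and the second smallest p in groups of at least 5, plus members singled out after their values were seen (Ccna2). From other lists up to 3 genes with the smallest p may be named. Exosc9, Pax5, Slamf1, Kit, Cd48, Car2 and Hbb-bs stand outside that rule.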

Additional observations from a re-analysis of the deposited data

Results flagged for a closer look

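Among 88 groups of 5 libraries (43 members and Nup214, in HET and FL), 4 had 1 library set apart from the rest by a gap larger than 0.71 of the group's range. Chance gives about 1 in 20. Pttg1 in HET had its gap below HET 1, at 50.5 FPKM (gap 0.893 of the range). Ndc80 in HET had its gap below HET 1 too, at 26.1 FPKM (0.870). Bub1 in FL had its gap above FL 5, at 10.6 FPKM (0.789), and Cdca8 in FL below FL 1, at 96.8 FPKM (0.784).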

How the results depend on the processing

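Pseudocounts of 0.1 and 0.5, no filter, a mean FPKM of at least 5, plain shrinkage, a replicate block and the first principal component as a term left the counts of calls at 0 for all genes, members and the 175 other cell cycle genes. Array quality weights gave 6234 lower and 635 higher calls over all genes, 17 lower and 1 higher among members, and 95 lower and 8 higher among the other cell cycle genes. Without both FL 5 and HET 1 these were 5506 and 448, 17 and 1, and 92 and 5. Median-ratio scaling and quantile normalization each gave 1 lower call over all genes and 0 among members. With 1 library left out, lower calls ran from 0 to 379 over all genes, from 0 to 2 among members and from 0 to 10 among the other cell cycle genes, and higher calls from 0 to 30 over all genes, the highest counts being those without FL 5. The Nup214 permutation p ran from 0.00794 to 0.0238 in these fits, and the members' median difference from -0.223 to -0.101. Under median-ratio scaling that median turned to 0.0199.

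Of the named members, some differences turned sign: under median-ratio scaling Bub3 (0.0826), Ube2c (0.126), Kif20b (0.0199), Kif23 (0.0377) and Top2a (0.0132), under quantile normalization Kif20b (0.0343) and Kif23 (0.0162), with the first principal component Pttg1 (0.0509, against -0.386), Kif23 (0.0255) and Ccna2 (-0.0919, against 0.213), with quality weights Ube2c (0.0887), without HET 5 Ube2c (0.0436), and Tacc3 without HET 2 (-0.0243) or HET 4 (-0.0124) (0.105 without HET 5). The causes were not tested. Whether same-numbered libraries were paired in the experiment was not settled by these data. Deviations of same-numbered libraries correlated from -0.172 to 0.23, with 3 of 5 pairs over 0.1. For 3 HET and 2 FL libraries the best correlation was with their own number. The replicate block called 0 genes, as without it. At an unadjusted limma p under 0.05, however, 2198 genes were lower with the block and 1167 without. The smallest limma adjusted p was 0.0971 with the block and 0.281 without.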

Other observations

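Genes that act before mitosis, at the G1 decision, had lower means in HET for 9 of 13 and higher for 4, where 77.3% of all tested genes were lower. Their median difference was -0.30, and 0 were called in limma (3 had an unadjusted p under 0.05, all lower, against 8.95% of all tested genes). Cdkn1a, the CDK inhibitor p21, had 54.1, 29.9, 21.5, 13.8 and 23.4 FPKM in HET libraries 1 to 5, against 53.0, 77.5, 51.1, 37.4 and 49.7 FPKM in FL libraries 1 to 5. HET 1 lay inside the FL range, HET 2 to 5 below it, and the difference was -0.99 (SE 0.31, limma adjusted p = 0.472). Cdkn1c, the inhibitor p57 known for its part in HSC quiescence, had 2.22, 0.27, 1.03, 0.42 and 0.38 FPKM in HET libraries 1 to 5, against 4.25, 4.71, 1.94, 2.93 and 0.5 FPKM in FL libraries 1 to 5. Its levels were near the lower limit of the filter, FL 5 lay inside the HET range, and the difference was -0.999 (SE 0.37, limma adjusted p = 0.472). Cdk6, a kinase of G1 entry, had 277, 147, 162, 149 and 145 FPKM in HET libraries 1 to 5, against 309, 373, 261, 272 and 141 FPKM in FL libraries 1 to 5. HET 1 lay among FL 1 to 4 and FL 5 was the lowest of all, with a difference of -0.60 (SE 0.26, limma adjusted p = 0.472).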
